A study of Mus musculus with 2 samples.

Results

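Genes that repair damaged DNA and signal its presence were examined in MEP, megakaryocyte-erythroid progenitors of the bone marrow, which give rise to red cells and to platelet-forming megakaryocytes. The set held 32 genes, a list of names with no threshold on their values, of the 43346 annotated genes in the gene tables: 8 of the Fanconi core complex, the 2 of the FANCI-FANCD2 pair, 10 of homologous recombination, 3 of mismatch repair, 2 of end joining, 4 checkpoint kinases, 2 of base excision and strand break repair, and 1 translesion ubiquitin ligase. All 32 matched a gene by identifier.

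The material was total RNA longer than 200 bases from MEP isolated as primary cells from male adult C57BL/6J mice aged 5 to 6 weeks. There were 2 libraries, replicate 1 and replicate 2, each made from 100 cells. No treatment, genetic change or second cell type was part of the series. The labels name the libraries biological replicates from separate biosamples and the same donor record, so the spread between them may be partly technical. With 1 group, every value below is a level in MEP or a difference between these libraries, and none carries a test.

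Interstrand crosslinks tie both strands of DNA together and stop replication forks. In the Fanconi pathway, the core complex attaches ubiquitin to FANCD2 and FANCI at the stalled fork, nucleases then open the crosslink, and homologous recombination restores the broken strand from its sister. Inherited loss of this pathway causes Fanconi anemia, a failure of bone marrow stem and progenitor cells. ATR and ATM, with CHEK1 and CHEK2 below them, slow the cell cycle while repair proceeds.

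Replicate 1 held 30016974 expected counts and replicate 2 held 51510347. Protein-coding nuclear genes took 45.0% and 50.1% of them. The 32 repair genes had 36321 and 68167 counts, from 54 to 3595 a gene in replicate 1 and from 72 to 6246 in replicate 2. Levels are given in TPM, the authors' length-corrected share of all transcripts, which can be compared between genes. The cell type label held: all 10 erythroid and MEP markers, Gata1, Klf1 and Epor among them, reached 10 TPM in both libraries. The libraries differed in other lineages. The 10 granulocyte-monocyte markers summed to 1899 TPM in replicate 1 but 6.84 TPM in replicate 2, where Mpo, Elane, Ctsg, Csf1r, Ngp and Lcn2 were at 0. Most of the replicate 1 sum came from S100a8, S100a9, Ngp and Camp, at 781.8, 677.4, 182.5 and 170.2 TPM. Mpo, Elane, Ctsg and Csf1r were low there as well, at 3.26, 4.70, 1.16 and 0.01 TPM. The 8 B cell markers summed to 7.14 TPM in replicate 1, where Vpreb1 and Ms4a1 were at 0, and to 127 TPM in replicate 2. In such bulk samples, fewer cells of a type and less RNA per cell cannot be told apart.

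Repair genes were broadly expressed. At 10 TPM or more in both libraries stood 22 of the 32, or 68.8%, where 24.7% of the 21461 protein-coding nuclear genes did. A further 2, Xrcc2 and Pms2, passed 10 TPM in 1 library, and 8 passed it in neither. The median over the 32 was 15.5 TPM in replicate 1 and 16.0 in replicate 2. Over the 9982 protein-coding nuclear genes with a mean of at least 1 TPM, the medians were 11.8 and 13.6 TPM. Over all transcripts the median level was thus above that of expressed genes, but by less than 1.5 times. The larger contrast was with the many genes that MEP did not express. In protein-coding transcripts the member median was 9.50 TPM in replicate 1 and 9.96 in replicate 2. Over the 9982 genes it was 8.98 and 10.34 TPM, so the members were not above them in replicate 2.

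Among the 6 main classes, the mismatch repair and end joining genes were highest and the Fanconi core lowest. In what follows, a pair of values gives replicate 1 and then replicate 2. The medians were 24.8 and 36.5 TPM for mismatch repair, and 25.7 and 36.2 TPM for end joining. The checkpoint kinases followed at 18.95 and 17.2 TPM. Homologous recombination had medians of 13.8 and 15.2 TPM, the FANCI-FANCD2 pair 13.9 and 13 TPM, and the Fanconi core 11.9 and 9.66 TPM. Outside these, Parp1 and Ung together had a median of 33.8 and 33.9 TPM. In both libraries the mismatch repair and end joining medians lay above the checkpoint median, and the Fanconi core median lay below the other 5. These classes hold 2 to 10 genes that overlap widely in level, so the order describes these lists only. It also rests on all transcripts being counted: in protein-coding transcripts the replicate 1 median was 5.32 TPM for homologous recombination and 6.97 TPM for the Fanconi core. The mismatch repair median in replicate 1 was the level of Exo1, whose TPM lay mostly in short transcripts.

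**Figure D1:**
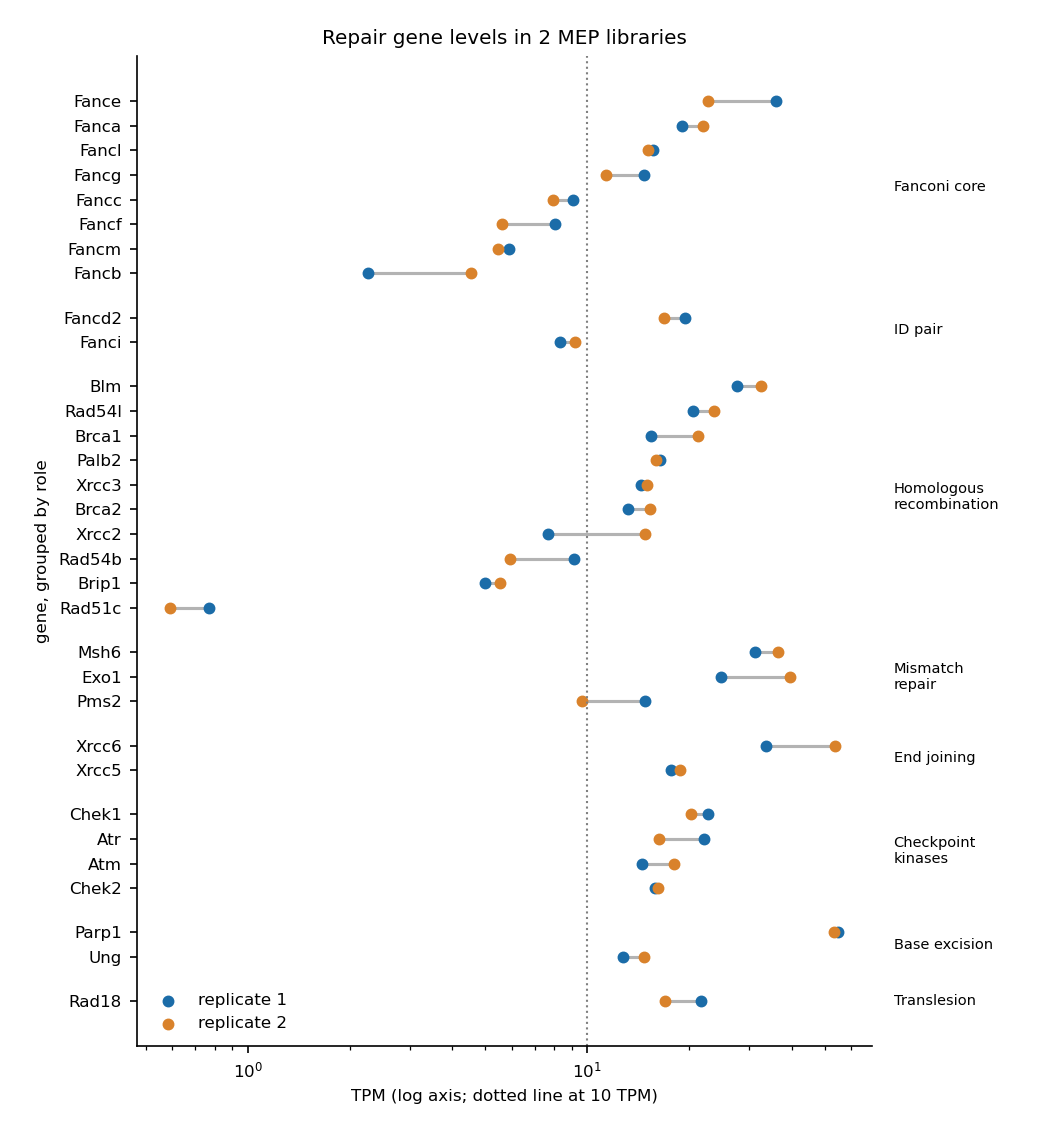
TPM of each of the 32 genes on a log axis, in replicate 1 (blue) and replicate 2 (orange), grouped by role and ordered by mean level, with a grey line joining the libraries and a dotted line at 10 TPM. Most genes sit between 10 and 40 TPM, Parp1 is highest at 54.8 and 53.2 TPM, and Rad51c stands alone under 1 TPM.

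Along the order of mean levels, from Parp1 to Rad51c, 31 neighbouring pairs could be formed. In 27 of them the libraries of the neighbours overlapped, so that their order is not resolved by 2 libraries. The 4 pairs that did not overlap were Chek2 above Fancl, Fancl above Xrcc3, Brip1 above Fancb and Fancb above Rad51c. Only the last of these separates genes that differ several-fold in level.

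Several of these genes share a short stretch of DNA with a neighbour transcribed the other way. Of the 32, 10 had the start of another protein-coding gene within 1000 bases upstream on the opposite strand, or 31.25%, where 6.82% of all protein-coding nuclear genes did. Among genes with a mean of at least 1 TPM the share was 9 of 31 members, or 29.0%, against a background of 11.9%. The pairs were Atm with Npat, Brca1 with Nbr1, Chek2 with Hscb, Fancb with Mospd2, Fancd2 with Emc3, Palb2 with Dctn5, Pms2 with Aimp2, Rad51c with Tex14, Rad54l with Pomgnt1, and Xrcc3 with Zfyve21. Their starts lay from 30 bases apart, for Fancd2 and Emc3, to 307 bases apart, for Atm and Npat.

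The bases between the starts are shown for 6 pairs, picked to span partners at like levels (Atm, Fancb, Chek2), a pair that is low on both sides (Rad51c) and pairs at unlike levels (Pms2, Xrcc3). Sequences are from RefSeq on GRCm38.p6, read 5′ to 3′ on the strand of the repair gene and leaving out exon bases. Capitals mark 4 motifs searched on both strands: the CCAAT box (CCAAT), the GC box (GGGCGG), an ETS site (CCGGAAG) and an E2F site (TTTCGCGC, TTTGGCGC or TTTCCCGC). Motifs may overlap each other, and on the opposite strand they read as their reverse complements.
Atm (chr9:53536741-53536921, minus strand): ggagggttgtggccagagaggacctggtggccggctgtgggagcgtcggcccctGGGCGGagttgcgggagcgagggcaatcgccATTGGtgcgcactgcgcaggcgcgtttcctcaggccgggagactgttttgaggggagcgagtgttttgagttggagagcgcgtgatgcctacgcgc
Fancb (chrX:164980376-164980591, plus strand): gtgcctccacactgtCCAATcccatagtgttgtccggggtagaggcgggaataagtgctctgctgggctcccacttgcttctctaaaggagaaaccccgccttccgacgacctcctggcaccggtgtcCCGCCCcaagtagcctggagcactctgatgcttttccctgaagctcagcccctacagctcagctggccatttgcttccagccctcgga
Chek2 (chr5:110839778-110839978, plus strand): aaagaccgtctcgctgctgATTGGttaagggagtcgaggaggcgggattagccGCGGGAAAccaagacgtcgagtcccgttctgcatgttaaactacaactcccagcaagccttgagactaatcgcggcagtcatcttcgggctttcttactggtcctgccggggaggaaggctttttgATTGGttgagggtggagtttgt
Rad51c (chr11:87404955-87405064, minus strand): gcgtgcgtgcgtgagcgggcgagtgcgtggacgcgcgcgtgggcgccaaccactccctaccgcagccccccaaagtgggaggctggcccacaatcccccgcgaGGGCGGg
Pms2 (chr5:143909848-143909963, plus strand): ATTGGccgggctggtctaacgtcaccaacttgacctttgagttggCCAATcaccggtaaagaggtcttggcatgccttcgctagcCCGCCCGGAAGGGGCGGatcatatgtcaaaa
Xrcc3 (chr12:111813874-111814129, minus strand): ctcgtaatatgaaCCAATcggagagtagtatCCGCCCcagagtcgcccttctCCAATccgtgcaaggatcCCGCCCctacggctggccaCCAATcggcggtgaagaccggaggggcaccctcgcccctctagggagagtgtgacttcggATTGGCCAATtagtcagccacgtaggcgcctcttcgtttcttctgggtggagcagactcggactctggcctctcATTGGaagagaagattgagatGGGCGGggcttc

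Atm and Npat, a histone gene activator, were near equal, at 14.46 against 14.32 TPM and 18.06 against 17.66 TPM. Fancb and Mospd2 were as close at a lower level, at 2.26 against 2.14 TPM and 4.55 against 4.38 TPM. Chek2 stood at 0.710 and 0.775 times Hscb in replicates 1 and 2, and Fancd2 at 0.808 and 0.741 times Emc3. Both pairs thus lay within 1.5 times of equality in each library. Rad51c and Tex14 were both under 1 TPM, with 19 and 0 counts for Tex14.

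The other 5 pairs were more than 1.5 times apart in at least 1 library. Pms2 was at 0.438 and 0.185 times Aimp2, a part of the multi-synthetase complex, which stood at 33.82 and 52.22 TPM. Xrcc3 was at 4.76 and 1.80 times Zfyve21. Palb2 was at 0.677 and 0.538 times Dctn5 and Brca1 at 0.50 and 0.899 times Nbr1, each within 1.5 times in 1 library and not in the other, and Rad54l was at 1.87 and 1.58 times Pomgnt1. Of the 9 pairs with both genes above 1 TPM, the repair gene was the lower partner in both libraries in 5, Chek2, Fancd2, Palb2, Pms2 and Brca1, and the higher in 4.

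RefSeq promoter windows, 250 bases before to 50 after a gene's start, were at hand for 28 of the 32 genes, as 31 windows. The CCAAT box was in 61.3% of these windows, against 37.4% of all 32851 windows and 38.6% of windows of expressed protein-coding genes. The E2F letters were in 22.6%, against 1.84% and 3.76%. They were found for Brca2, Chek2, Fancg, Msh6, Rad51c and Xrcc6, whose levels run from the bottom of the list to near its top. The GC box, at 67.7%, and the ETS letters, at 25.8%, were nearer the expressed background of 63.6% and 20.0%, while all windows held them in 35.7% and 8.86%. A match is a run of letters and not a shown binding site. For Rad51c the E2F letters lie outside the bases printed.

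The Fanconi core complex was uneven. Fance, the adaptor that binds FANCD2, was its highest gene at 36.02 and 22.74 TPM. Fanca, partner of FANCG, was at 18.97 and 21.93 TPM. Fancl, the ubiquitin ligase of the complex, was at 15.66 and 15.11 TPM. These 3 and Fancg, at 14.67 and 11.38 TPM, were the core genes at 10 TPM in both libraries. The remaining 4 were lower. Fancc was at 9.11 and 7.94 TPM, and Fancf, which links FANCC and FANCE to the rest, at 8.05 and 5.62 TPM. Fancm, the DNA translocase that anchors the complex, was at 5.89 and 5.46 TPM. The X-linked Fancb, at 2.26 and 4.55 TPM, was the lowest core gene in both libraries.

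FANCD2 and FANCI form a clamp on DNA once they carry ubiquitin. Fancd2 was at 19.42 and 16.78 TPM, and Fanci at 8.29 and 9.22 TPM. The libraries of the pair did not overlap, and Fancd2 exceeded Fanci by 2.34 and 1.82 times. Of 13 further Fanconi genes, such as nucleases and ubiquitin enzymes, 11 reached 10 TPM in both libraries. The highest was Cenpx, a histone-fold partner of FANCM, at 54.63 and 73.75 TPM. The lowest was the nuclease gene Fan1, at 2.30 and 2.70 TPM.

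Homologous recombination held both high and nearly silent genes. The Bloom helicase gene Blm was highest at 27.64 and 32.43 TPM, followed by Rad54l, a DNA motor of strand exchange, at 20.46 and 23.60 TPM. Brca1, which promotes end resection, was at 15.38 and 21.23 TPM. Brca2, a mediator of strand exchange, was at 13.20 and 15.32 TPM from 3071 and 6246 counts, and Palb2, which joins BRCA1 to BRCA2, at 16.43 and 15.96 TPM. These 5 reached 10 TPM in both libraries, as did Xrcc3. The relative Rad54b was lower, at 9.14 and 5.93 TPM, as was the helicase gene Brip1, at 4.99 and 5.53 TPM.

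Xrcc2, Xrcc3 and Rad51c, whose proteins act early in strand exchange, spanned the class from its middle to its lowest gene. Xrcc3 was at 14.37 and 15.05 TPM and Xrcc2 at 7.68 and 14.79 TPM. Rad51c (ENSMUSG00000007646.9, chr11:87376645-87404954 on mm10, minus strand), whose protein forms complexes with those of Xrcc2 and Xrcc3, was at 0.77 TPM from 54 counts and 0.59 TPM from 72 counts. Exact 95% Poisson intervals were 0.578 to 1.00 TPM and 0.462 to 0.743 TPM and cover counting error only. A count of 3, the floor used for detection, equals 0.0541 and 0.0281 TPM for a member of median effective length, so Rad51c was above it. Over all transcripts, Xrcc3 exceeded Rad51c by 18.7 and 25.5 times. Of 29 further recombination genes, 19 reached 10 TPM in both libraries. Swi5 was highest at 127.8 and 150.7 TPM, and Rmi2, a partner of BLM, lowest at 2.71 and 0.60 TPM.

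In mismatch repair, Msh6, which recognises mispaired bases, was at 31.21 and 36.50 TPM. The exonuclease gene Exo1 was at 24.80 and 39.51 TPM. Its transcript of 7796 bases held 917 of 1119 counts and 1596 of 2385 counts, but only 5.45 and 5.42 TPM. Most of the TPM of Exo1 lay in transcripts of 968 bases or fewer. Pms2, which nicks the strand to be repaired, was lower at 14.83 and 9.65 TPM, below both others in each library. Of 5 further mismatch repair genes, 3 reached 10 TPM in both libraries, and Mlh3 was lowest at 5.44 and 4.83 TPM.

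The Ku subunits, which cap broken ends for end joining, were unequal. Xrcc6 (Ku70; chr15:81987835-82040085, plus strand) was at 33.71 and 53.72 TPM, a mean of 43.7 ± 14.1 TPM (SD, n = 2). Xrcc5 (Ku80) was at 17.61 and 18.77 TPM. The pair did not overlap, with Xrcc6 higher by 1.91 and 2.86 times. Of 10 further end joining genes, 4 reached 10 TPM in both libraries, and their median was 8.57 and 7.165 TPM. Rif1, which shields ends from resection, was highest at 48.17 and 69.28 TPM. Lig4, the ligase that seals the ends, was lowest by its mean, at 1.52 and 1.54 TPM. Its partner Xrcc4, named here after its value was seen, was at 1.13 and 1.94 TPM, so the order of these 2 differed between libraries.

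All 4 checkpoint kinases reached 10 TPM in both libraries, within a narrow band of mean levels from 16.0 to 21.4 TPM. In protein-coding transcripts Chek2 alone kept this, since Atm was at 9.81 and 8.93 TPM, Atr at 9.41 and 10.09 TPM, and Chek1 at 8.07 and 11.65 TPM. Chek1, the effector of ATR, was at 22.63 and 20.20 TPM, and Atr, which senses single-stranded DNA at stalled forks, at 22.07 and 16.26 TPM. Atm, which responds to double-strand breaks, was at 14.46 and 18.06 TPM, and its effector Chek2 at 15.83 and 16.12 TPM. In replicate 1 both genes of the ATR arm were above both of the ATM arm, and in replicate 2 Atm lay above Atr. Of 15 further checkpoint genes, 12 reached 10 TPM in both libraries. Tipin, a fork protection factor, was highest at 97.12 and 137.5 TPM. Etaa1, an ATR activator, was lowest at 7.15 and 4.75 TPM.

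Parp1 (chr1:180568924-180601254, plus strand), which marks strand breaks with ADP-ribose, was the highest of the 32, at 54.82 and 53.20 TPM, a mean of 54.0 ± 1.15 TPM (SD, n = 2). In replicate 2 Xrcc6 was just above it. Ung, which removes uracil from DNA, was at 12.78 and 14.66 TPM. Of 18 further base excision genes, 8 reached 10 TPM in both libraries, led by Apex1, the abasic site nuclease, at 65.80 and 78.45 TPM. The glycosylase gene Neil2 was listed at 0 in both. Rad18, which ubiquitinates the replication clamp at damaged templates, was at 21.70 and 16.93 TPM. Of 10 further translesion genes, 5 reached 10 TPM in both libraries, from Rev1 at 17.36 and 21.17 TPM to Polk at 3.81 and 5.64 TPM. Nucleotide excision repair, outside the set, had 8 of 15 genes at 10 TPM in both libraries, from Ddb1 at 101.3 and 93.73 TPM to Xpc at 3.65 and 4.92 TPM.

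**Figure D2:**
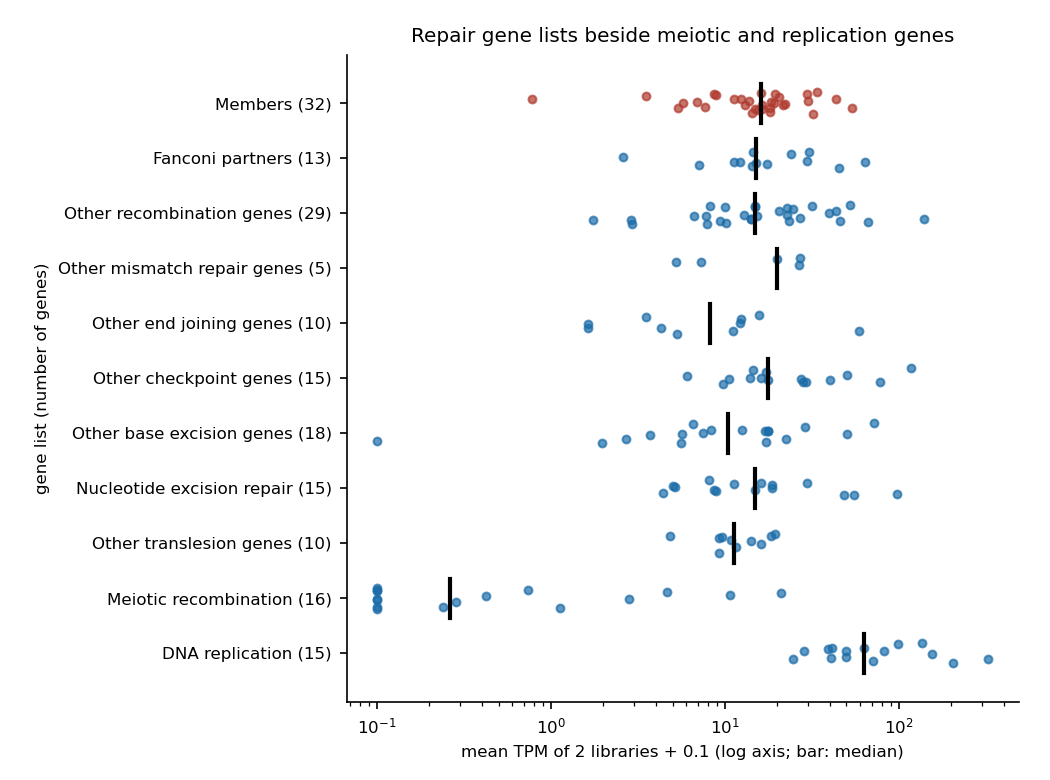
Mean TPM of the 2 libraries plus 0.1, on a log axis, for each gene of 11 lists, with a black bar at the list median. The 32 members (red) and the other repair lists overlap in range, the meiotic list lies mostly at the left edge, and the DNA replication list lies to the right of the members' median.

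The 115 other repair genes, taken without the meiotic list, had medians of 12.96 and 15.3 TPM, and 70 of them reached 10 TPM in both libraries. The 32 genes therefore sat at a level like that of repair genes at large. A list of 16 genes of meiotic recombination had medians of 0 and 0.225 TPM, and 11 were under 1 TPM in both libraries. Psmc3ip, a cofactor of strand exchange, was the 1 meiotic gene at 10 TPM in both, at 10.86 and 30.91 TPM. The 15 DNA replication genes, from Pcna at 298.7 and 352.1 TPM to Gins1 at 17.32 and 32.03 TPM, had medians of 64.2 and 62.4 TPM.

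Subunits of the same complex were often at unlike levels. In 12 complexes or groups that hold a member, with partners added, the same genes were highest and lowest in both libraries in 10. The ratio of highest to lowest was under 1.5 in both libraries for BRCA1 with its partner BARD1, at 1.16 and 1.42, and for BRCA2 with PALB2, at 1.24 and 1.04. That last match held over all transcripts only: in protein-coding transcripts Palb2 was at 5.39 and 3.51 TPM, and Brca2, all coding, at 13.20 and 15.32 TPM. Atr exceeded its partner Atrip by 1.78 and 2.32 times, and Faap24 exceeded Fancm by 1.96 and 2.00 times.

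The widest gaps lay above a single low gene: Xrcc3 over Rad51c, at the 18.7 and 25.5 times given above, and Blm over Rmi2, at 10.2 and 54.1 times. The first gap was narrower in protein-coding transcripts, with Xrcc3 at 4.47 and 6.04 TPM and Rad51c at 0.52 and 0.59 TPM. Fancl exceeded Fancb by 6.93 and 3.32 times. Fance exceeded Fancf by 4.47 and 4.05 times, and here Fance stood apart as the high gene, with Fancc near Fancf. In protein-coding transcripts Fance was at 8.11 and 7.10 TPM and Fancf at 8.05 and 5.62 TPM. The highest or lowest gene changed between libraries in 2 groups. With FANCA and FANCG, Faap20 was lowest in replicate 1, at 10.62 TPM, and Fancg in replicate 2. Rad18 was above both of its ubiquitin-conjugating partners, Ube2a and Ube2b, in replicate 1, and below Ube2b in replicate 2. These are RNA levels, and the proteins of a complex were not measured.

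**Figure D3:**
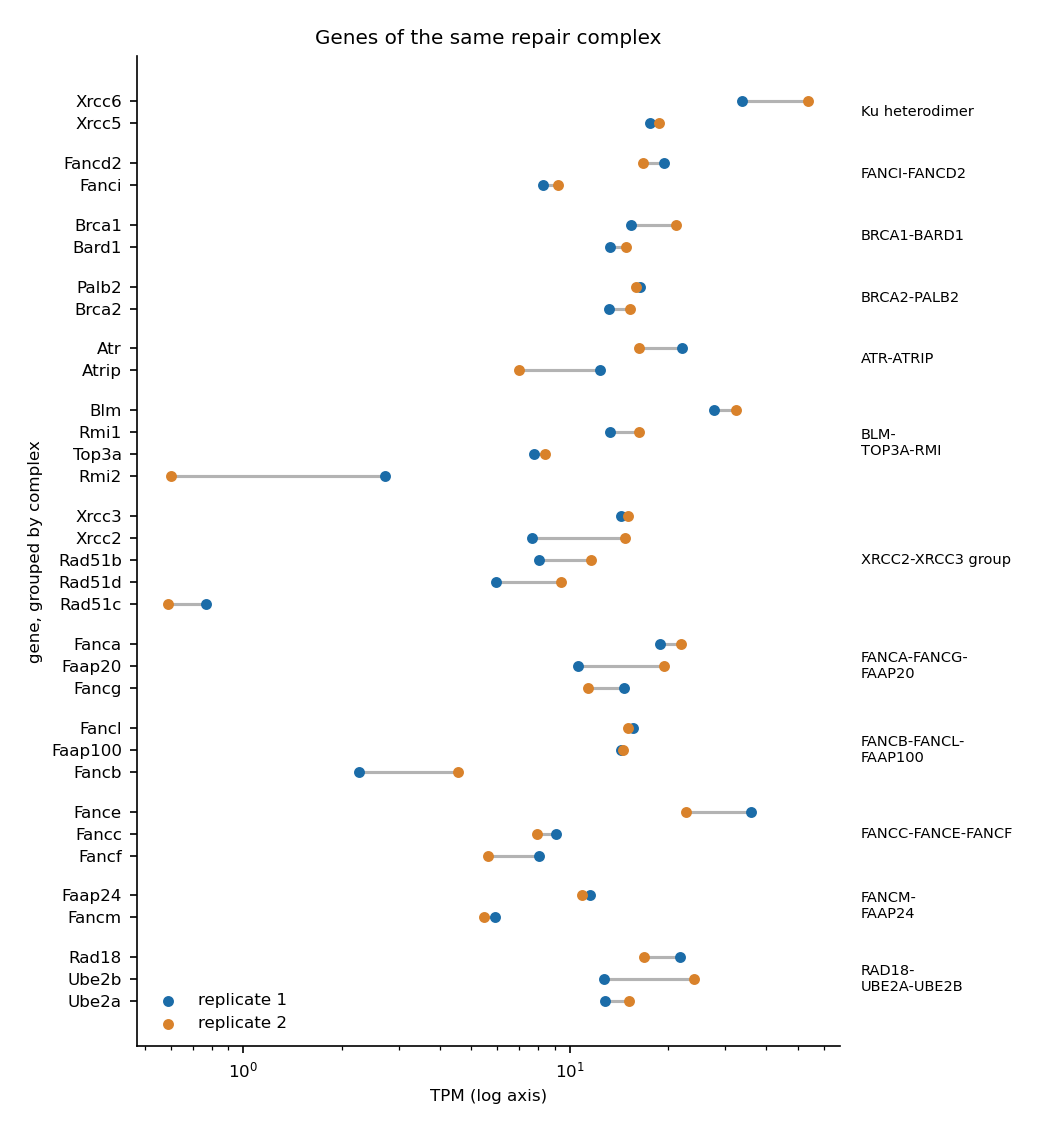
TPM on a log axis of the genes of 12 complexes or groups, in replicate 1 (blue) and replicate 2 (orange), joined by a grey line. Rad51c and Rmi2 lie far to the left of their partners, while Brca2 and Palb2 lie within 1.24 times of each other in both libraries.

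Total RNA holds unspliced and unfinished transcripts as well as coding messages, and the level of a gene sums over all of them. Of the 32 genes, 26 had several annotated transcripts, and 24 of these had a mean of at least 5 TPM. Both libraries gave the same leading transcript, the one with the largest share of TPM, for 18 of the 24, or 75.0%, against a background of 72.3%. It was protein-coding in both libraries for 16 of 24, or 66.7%, against 77.6%. Counting protein-coding transcripts only, 13 of the 32 genes stayed at 10 TPM in both libraries, where 20.6% of protein-coding nuclear genes did. The median over the 32 was then 9.50 and 9.96 TPM, against 8.98 and 10.34 TPM over the 9982 expressed genes. Transcript shares of TPM are estimates from short reads, and a short transcript can hold a large share on few counts.

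In 4 genes the leading transcript was not coding in either library. For Palb2 it was a retained-intron transcript of 709 bases with 46.8% and 51.2% of the gene's TPM, and the coding transcripts came to 5.39 and 3.51 TPM. For Fance it was a processed transcript of 536 bases with 46.8% and 53.6%, leaving 8.11 and 7.10 coding TPM. Rad18 led with a processed transcript at 30.4% and 48.6%, leaving 9.59 and 6.63 coding TPM. The high rank of Fance and the middle rank of Palb2 thus came mostly from transcripts not annotated as protein-coding.

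Pms2 was the most extreme. Its leading transcript was a retained-intron form in replicate 1, with 41.2% of its TPM, and a processed transcript in replicate 2, with 36.6%. The replicate 1 form held 44.2 of 729 counts there, and the coding Pms2-209 held 360.3. In replicate 2 the processed transcript held 725.0 of 1366 counts, and Pms2-209 held 183.6. Coding transcripts of Pms2 came to 3.23 and 0.89 TPM, or 21.8% and 9.23% of the gene. In 4 other genes, Fancc, Rad54b, Exo1 and Chek1, a noncoding transcript led in replicate 1 and a coding one in replicate 2. For Rad54b the coding share of TPM went from 44.5% to 89.9%, and for Fancc from 39.6% to 84.9%.

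Xrcc3 and Fancg led with a coding transcript in both libraries, yet were mostly noncoding by share of TPM. Their coding shares of TPM were 31.1% and 40.2% for Xrcc3, and 30.4% and 47.6% for Fancg. By counts both were mostly coding. The coding Xrcc3-201 held 224.7 of 397 and 526.5 of 817 counts. The coding Fancg-201 held 258.3 of 484 and 546 of 738 counts. Some other members were mostly or wholly coding. Msh6, Xrcc5, Chek2, Brca2, Fancf and Fancm each have 1 annotated transcript, and both transcripts of Blm are coding, the shorter at 69.5% and 54.6%. Parp1 was 95.8% and 87.5% coding, and Xrcc6 96.3% and 83.6%. For Ung both leading transcripts were coding but not the same, Ung-203 at 73.6% in replicate 1 and Ung-201 at 57.05% in replicate 2. UNG is made in mitochondrial and nuclear forms, and the tables do not say which transcript makes which.

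**Figure D4:**
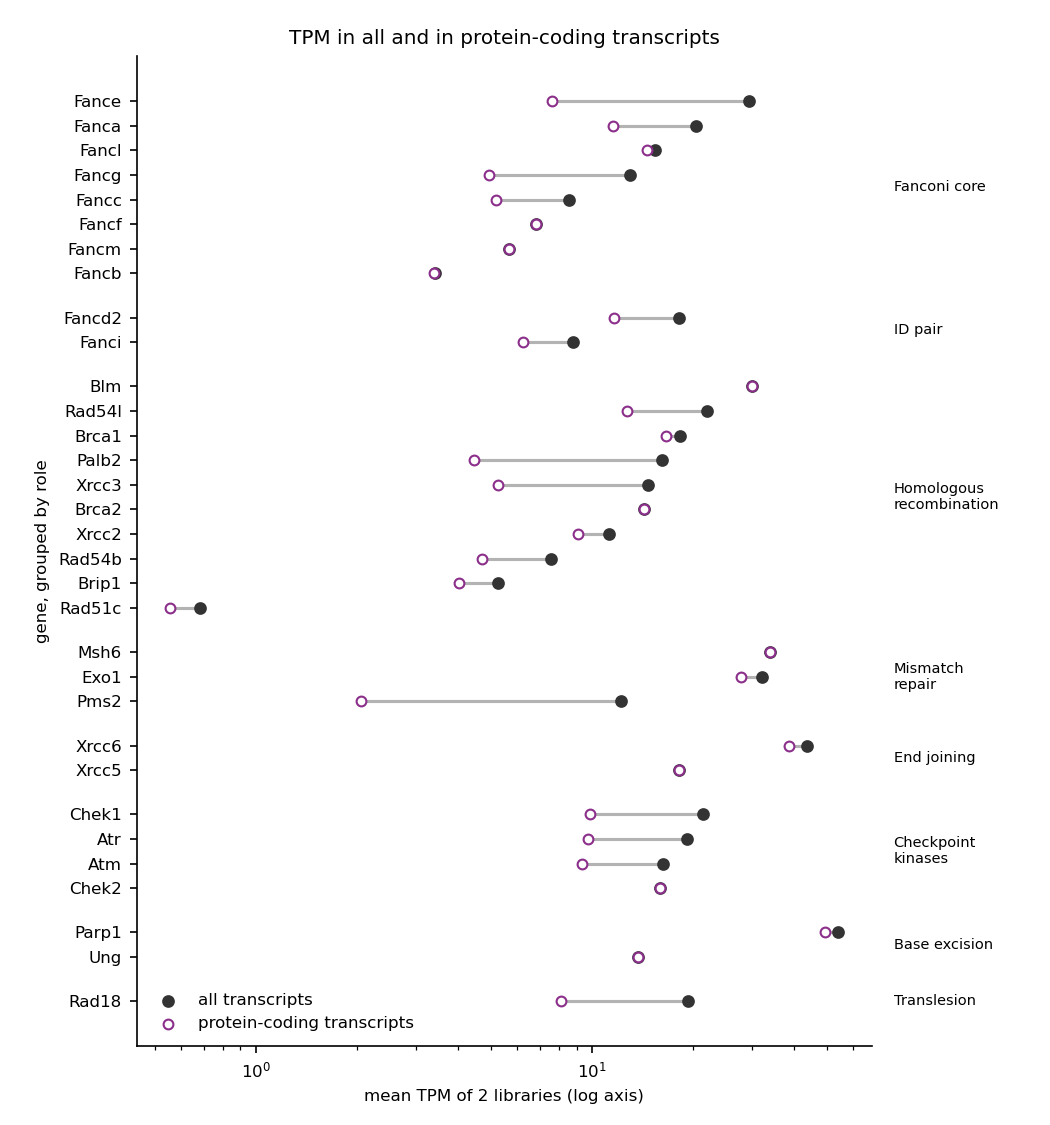
Mean TPM of the 2 libraries on a log axis, over all transcripts of a gene (filled) and over its protein-coding transcripts (open), joined by a grey line. The longest line is that of Pms2, from 12.2 to 2.06 TPM, and genes with coding transcripts only, such as Msh6 and Brca2, show no line.

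The libraries gave like levels for the set as a whole. The difference between libraries was taken as log2(TPM + 1), replicate 2 minus replicate 1, after subtracting the median over expressed protein-coding genes of 0.18. Of the 31 members with a mean of at least 1 TPM, 0 were 2-fold or more apart in either direction on this scale, where 6.63% of expressed genes were. With a mean of at least 10 TPM, 0 of 24 members were, where 1.96% of 5759 genes were, so the background there was itself near 0. By CPM, counts scaled to library size with TMM factors and not corrected for length, 0 members were past 2-fold as well. The median size of the difference was 0.27 over the members and 0.28 over expressed genes. The deposited intervals of the quantifier did not overlap between libraries for 14 of the 31, against 60.3% of expressed genes. Those intervals hold quantification error and not the spread between animals.

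Fance fell furthest from replicate 1 to replicate 2 on this scale, by 0.82, and Xrcc2 was furthest the other way, at 0.68. For Xrcc6, at 0.48, the deposited intervals were 31.9 to 36.4 TPM and 51.1 to 56.9 TPM. The pseudocount of 1 understates the difference of low genes such as Fancb, whose TPM in replicate 2 was 2.01 times that in replicate 1 without it. Replicate 1 carried the granulocyte-monocyte markers and replicate 2 the B cell markers given above, and their part in these differences was not tested.

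Where a gene has transcripts of unlike length, TPM and counts can differ in direction. On the CPM scale 10 of the 31 members with a mean of at least 1 TPM had the opposite direction, where 12.9% of expressed genes did. They were Chek1, Fanca, Brca1, Atm, Fancl, Xrcc3, Ung, Fanci, Fancc and Brip1, and some lay near 0 on 1 of the scales, such as Fanca at 0.02 in TPM. Fancc fell by 0.36 in TPM and stood at 0.46 in CPM, while its estimated effective length went from 1528 bases in replicate 1 to 2765 bases in replicate 2. Brca1 was at 0.26 in TPM and fell by 0.33 in CPM, as its effective length went from 5593 to 3649 bases. A transcript of 355 bases held 38.8% of Brca1 TPM in replicate 2, from 60.8 of its 2993 counts. For the single-transcript genes Msh6, Brca2, Xrcc5, Chek2, Fancm and Fancf the scales differed by at most 0.0545, for Fancf.

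**Figure D5:**
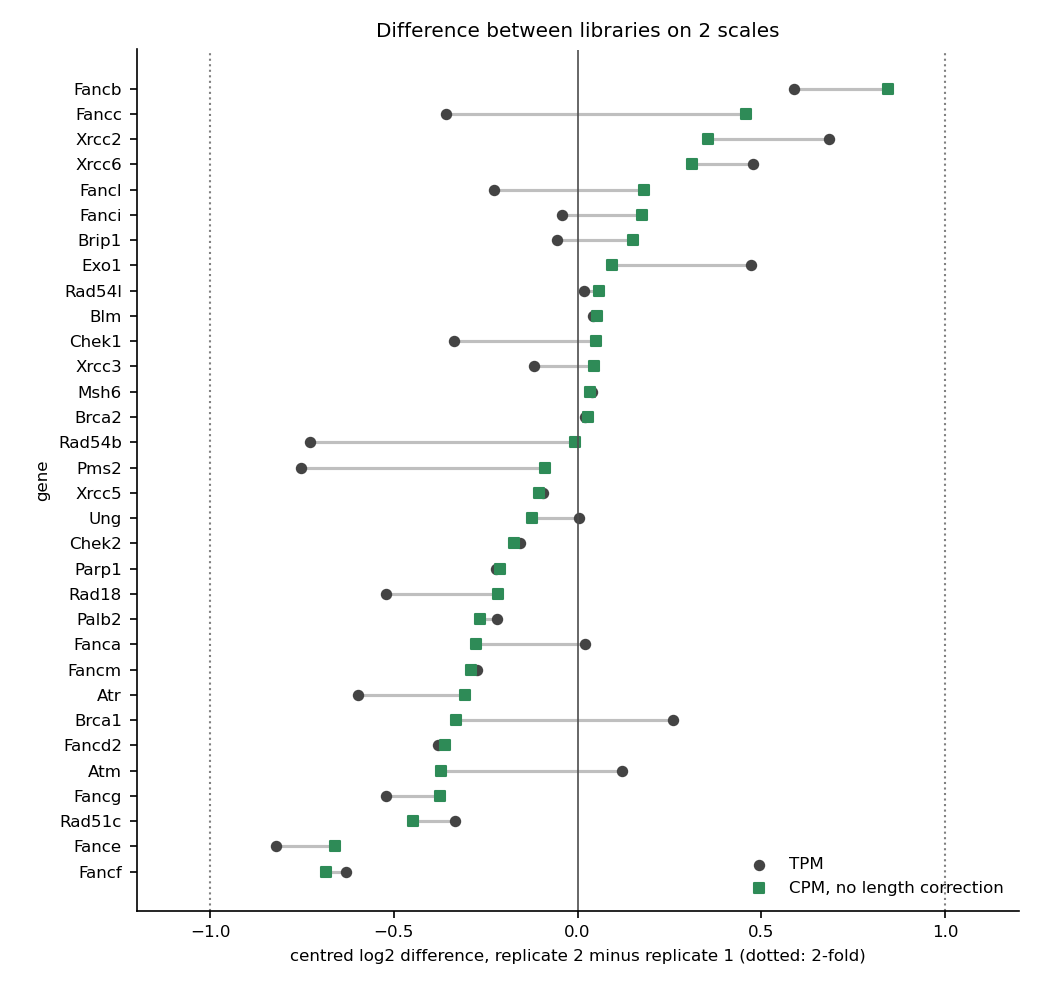
Difference between libraries for each of the 32 genes, replicate 2 minus replicate 1, in log2 units after centring, by TPM (circles) and by CPM without length correction (squares), with dotted lines at 2-fold. All points lie inside the 2-fold lines, and for 10 genes the circle and the square lie on opposite sides of 0.

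Of the 31 genes with a mean of at least 1 TPM, 9 overlap a gene on the opposite strand that was itself at 1 TPM or more in either library, where 18.6% of expressed genes do. Whether counting used strand is not given in the sources used here, so reads in the shared stretches may have been assigned to either gene. The highest such partners were Polg, which overlaps Fanci, at 29.94 and 18.74 TPM, Klc1, which overlaps Xrcc3, at 14.55 and 27.45 TPM, and Desi1, which overlaps Xrcc6, at 20.22 and 24.14 TPM. Rad51c and Fancb were not among the 9.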

How the data were processed

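Total RNA was sequenced by the authors in 2 libraries of MEP and quantified, per the README beside the tables, on mm10 with GENCODE M4; which aligner and quantifier release was used is not stated there or in the labels. The deposited expected counts are estimated reads per gene or transcript and were used as deposited for CPM, and rounded for the scaling factors. TPM, as deposited, is scaled over all features, ribosomal RNA included. Transcript shares are the percent column that the authors deposited. The deposited signal columns hold the quantifier's interval bounds, whose level is not given.

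Names, transcript types and positions were taken from GENCODE M21 (GRCm38, or mm10), by identifier without version. Expressed genes are the 9982 protein-coding nuclear genes with a mean of at least 1 TPM. Differences between libraries used log2(TPM + 1), centred on those genes. Between libraries, CPM used TMM factors from edgeR 4.0.16, with size factors from DESeq2 1.42.0 as an alternative, in R 4.3.3. The class medians in CPM used all expected counts of a library instead. Other steps used Python 3.11.15, numpy 2.4.6, pandas 2.3.3, scipy 1.17.1 and matplotlib 3.10.9. The calculation was tested on simulated data. Both libraries formed 1 group, so p-values were not computed. Reads are not independent molecules, so intervals and floors cover no more than counting error.

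All members were named, and of each further list the highest and lowest gene and, where 5 or fewer, those under 1 TPM in both libraries. Some genes that this rule takes are not reported here. Members and lists were set by name, without a threshold, but with earlier results of these data known. The complexes, the motifs and the count of neighbouring starts were chosen after seeing the data.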

Additional observations from a re-analysis of the deposited data

How the results depend on the processing

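Rescaling TPM to protein-coding genes and CPM change the unit, so for these the order of classes is compared and not the size. The rescaling kept the order of the class medians seen in mean TPM. Rescaled to protein-coding nuclear genes, the class medians were 37.6 TPM for all members, 25.4 for the Fanconi core, 33.8 for homologous recombination, 74.3 for mismatch repair, 71.7 for end joining and 41.6 for the checkpoint kinases. CPM was here taken over all expected counts of a library, with no TMM factors and no length correction. The same medians were then 29.3, 14.8, 21.4, 41.8, 45.4 and 51.4, which puts the kinases first. With protein-coding transcripts only, a choice made after seeing the data, they were 9.56, 6.26 (Fanconi core), 7.16 (homologous recombination) and 9.81 TPM (checkpoint kinases), and the other two medians moved by less than the spread between libraries. Posterior mean TPM gave 15.6 for all members. With each library left out in turn, the medians ranged from 15.5 to 16.0 TPM for all members, 9.66 to 11.9 for the Fanconi core, 13.8 to 15.2 for homologous recombination, 24.8 to 36.5 for mismatch repair, 25.7 to 36.2 for end joining and 17.2 to 18.95 for the checkpoint kinases. At 10 TPM stood 23 members in either library alone. At a minimum of 20 TPM 8 members passed in both, at 5 TPM 29 did, and 13 passed 10 TPM in protein-coding transcripts. The count of members past 2-fold was 0 under 7 alternatives of pseudocount, scaling, filter and centring, and 1, Pms2, in protein-coding transcripts. No paired analysis was possible because the series holds 1 group. The 2 libraries limit every spread given here.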
